A study of Sus scrofa with 4 samples.

Results

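Serpins form a large protein family, named for the serine protease inhibitors among its members. The family here comprises the 30 features whose gene symbol starts with SERPIN, out of 31908 features counted, of which 16508 carry a symbol. The members were found by symbol alone, so serpins among the features that carry only an identifier would be missed, in the family totals too. The values here are for 29 of them. Each of the 29 had at least 1 unique molecular identifier (UMI, the tag that marks a captured RNA molecule) in the cells kept. Together they gave 305072 UMIs, or 0.139% of the total.

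An inhibitory serpin offers a protease a flexible reactive centre loop as bait. When the loop is cut, the serpin folds around it and traps the protease in a covalent complex that cannot be undone. Several members have lost this activity: SERPINH1 is a collagen chaperone, SERPINF1 a secreted anti-angiogenic factor, SERPINA6 and SERPINA7 carry hormones, and SERPINB5 is a tumour suppressor in human breast. In the testis, inhibitory serpins are known for holding back plasminogen activators and other proteases released as the seminiferous tubules are remodelled. Loss of Serpina5 leaves male mice infertile.

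Cells of whole pig testis were profiled by droplet RNA sequencing of transcript 3′ ends at 7, 30, 60 and 90 days of age, with 1 library per age. The labels name no strain, genotype or treatment, and the number of animals in a library, and whether animals were pooled, was not given in them. With 1 library at each age, age and library cannot be told apart, no age difference has a replicate check, and no test of significance was possible. Values in brackets are exact 95% intervals, and these reflect counting error alone.

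After filtering, 12086, 14606, 10376 and 10901 cells remained at 7, 30, 60 and 90 days, out of 15896, 19373, 16839 and 17494 barcodes that held 45717373 to 96133720 UMIs per library. Median UMIs per kept cell were 4972, 2840, 2482.5 and 2541. The cells fell into 32 clusters, made without the SERPIN features, and 27 of them were named by their markers as "-like" classes. The 60-day library stood apart: 4398 of its cells (42.4%) lay in unnamed clusters, against 1413, 380 and 9 cells at 7, 30 and 90 days, and 4498 of its barcodes held fewer than 1000 UMIs. The 90-day library alone held spermatid-like cells, and the 7 spermatid markers summed to between 1533 counts per 1000000 UMIs (CPM) in Sertoli-like cells and 4026 CPM in T or NK-like cells at 90 days, with 6 or 7 of the 7 detected in every class that is not germ-cell-like. In those classes at 7 days the sum lay between 0 and 19.8 CPM. The part of such spermatid RNA in the serpin values was not tested. Barcodes shared by a pair of libraries numbered 78 to 115.

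Levels are given as CPM of the summed UMIs of a class in a library, so a level is a share of that class's RNA. The counts come from transcript 3′ ends and were not divided by gene length. A difference between ages is described as higher or lower when the ratio of CPM was at least 2 or at most 0.5 with at least 20 UMIs over both pools. That is a rule of size and not a test. Only pools of at least 50 cells are given, which leaves 40 pools in 13 classes.

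The family was concentrated in the supporting cells of the tubule and in the connective tissue between tubules. In Sertoli-like cells, the nurse cells of the germ line, the 29 members took 0.187, 0.237, 0.215 and 0.151% of UMIs at 7, 30, 60 and 90 days. In interstitial stromal-like cells, the fibroblast-type cells between tubules, they took 0.204, 0.159, 0.171 and 0.173%. Cells scored as spermatogonia or spermatocytes, called early germ-like cells here, were far lower, at 0.0395, 0.0431, 0.0479 and 0.0160%. At 90 days the share was 0.0311% in spermatocyte or spermatid-like cells and 0.0338% in spermatid-like cells. The early germ-like share at 90 days was thus below each of its earlier values, with a log2 ratio of 90 over 7 days of -1.31 [-1.38 to -1.24]. Most early germ-like cells came from different clusters at the ages compared: 2138 of 2168 cells at 90 days were in a cluster that held none of the 514 cells at 7 days.

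**Figure D1:**
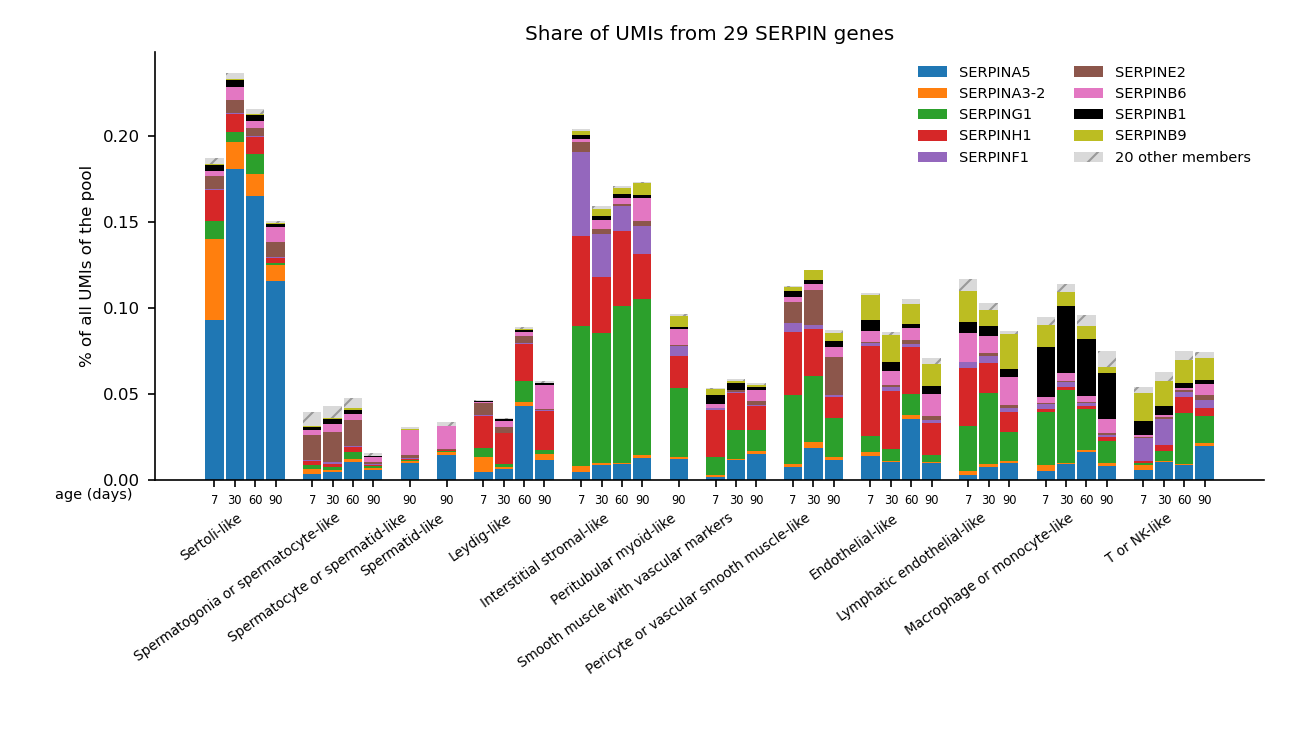
Share of all UMIs of a pool (%, from 0) from the 29 SERPIN genes in each class and age, stacked by member. Sertoli-like bars are mostly SERPINA5, stromal-like bars mostly SERPING1, SERPINH1 and SERPINF1, and macrophage-like bars hold the largest SERPINB1 segments.

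A single member led the family in each of the main classes. SERPINA5 gave 49.9, 76.3, 76.8 and 76.7% of the family's UMIs in Sertoli-like cells at 7, 30, 60 and 90 days, and SERPING1 gave 39.7, 47.3, 53.5 and 52.3% in stromal-like cells. SERPINE2 led in early germ-like cells, with 36.8, 40.9 and 31.2% at 7, 30 and 60 days, but SERPINA5 led there at 90 days with 37.3%. That SERPINA5 level was 5.16% of the Sertoli-like level, beside 10.8% for the summed Sertoli markers, and the part of Sertoli RNA in it was not tested. Over all kept cells SERPINA5 gave 46.1% of the family, SERPING1 14.7%, SERPINH1 11% and SERPINA3-2 9.34%. In all, 10 members reached 50 CPM in at least 1 pool and gave 98.8% of the family's UMIs. They are described here by role, and the remaining 19, with 4 to 745 UMIs each, follow them.

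**Figure D2:**
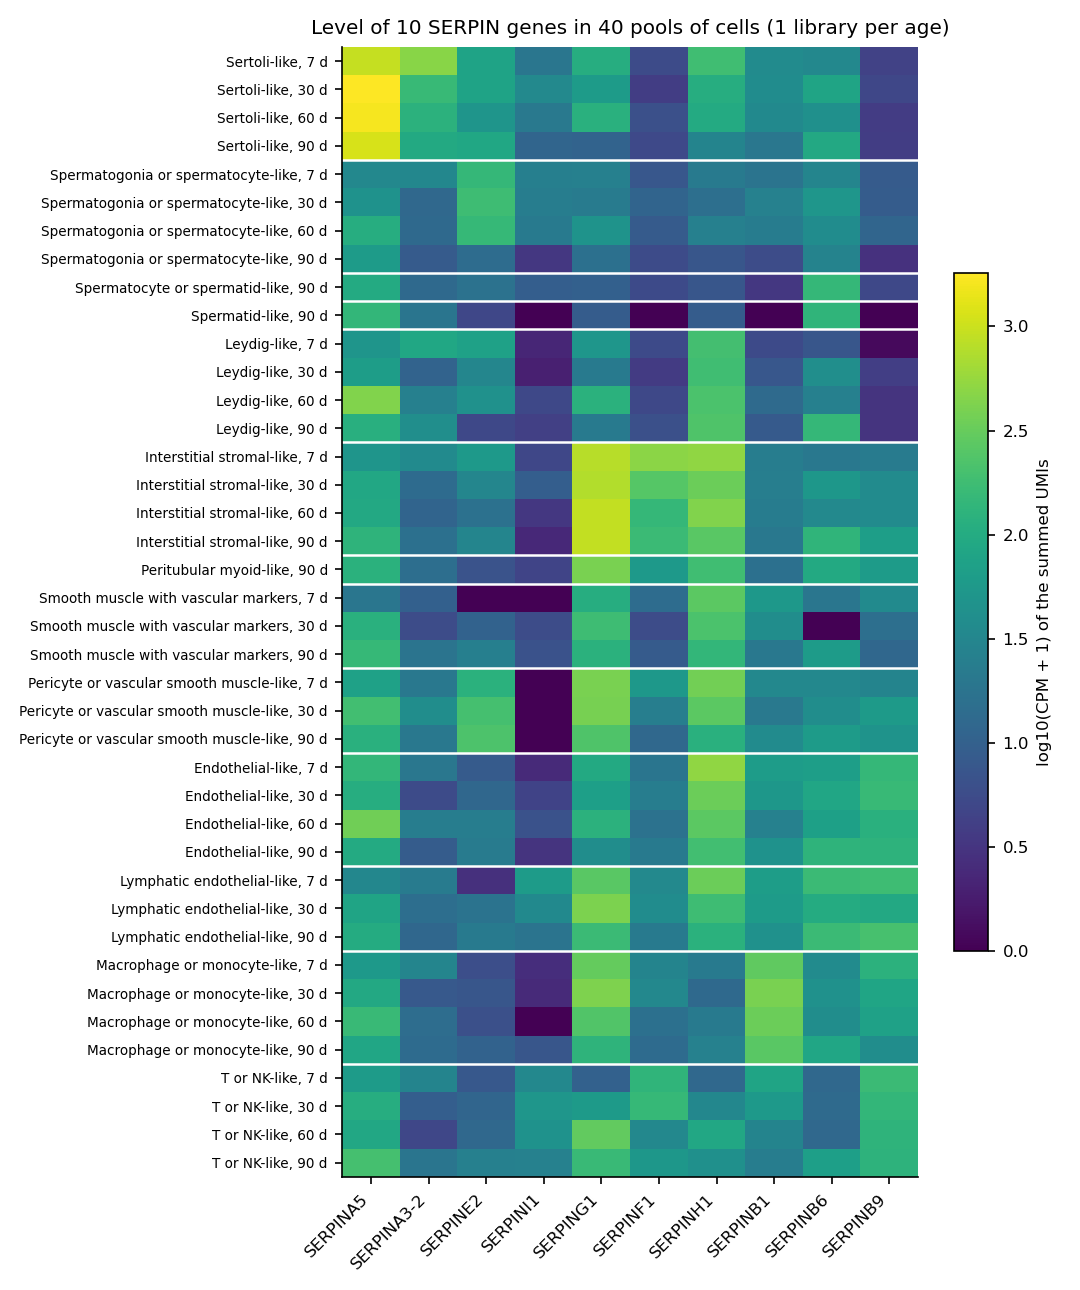
Level of the 10 main members (columns) as log10(CPM + 1) in 40 pools, each a class and an age in days (down the page). SERPINA5 and SERPINA3-2 are highest in Sertoli-like cells, SERPING1 and SERPINF1 in stromal-like cells, and SERPINB1 in macrophage or monocyte-like cells at each age.

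SERPINA5, the protein C inhibitor, is a secreted serpin that blocks activated protein C, plasminogen activators and the sperm protease acrosin. Its gene lies at chr7:115799414-115810825 (RefSeq, Sscrofa11.1), in a stretch of chromosome 7 that also holds SERPINA3-2, SERPINA1, SERPINA6 and SERPINA11. In Sertoli-like cells SERPINA5 stood at 933 [922–944], 1807 [1790.4–1825], 1654 [1634–1674] and 1156 [1138–1174] CPM at 7, 30, 60 and 90 days. By library totals it was highest at 30 days and lowest at 7 days, and no 2 of the intervals overlapped. The order of 7 and 90 days depended on the scaling. The log2 ratio of 90 over 7 days was 0.31 by library totals, -0.19 with trimmed-mean (TMM) scaling and -0.06 with the mean over cells. Relative to all other cells of the same library, SERPINA5 was 3.85, 12.4, 3.77 and 13.0 times as high in Sertoli-like cells at the 4 ages. The other cells stood at 242, 146, 439 and 89.1 CPM, and they included the unnamed clusters. At 7 days 1280 of those cells lay in an unnamed cluster that scored 1.327 for Sertoli markers and had 859 CPM of SERPINA5. At 60 days 3372 lay in an unnamed cluster that scored 0.714 and had 782 CPM. The ratios of 3.85 and 3.77 are thus set in part by unnamed cells.

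The SERPINA5 transcript was found in nearly all Sertoli-like cells at the first 3 ages. At least 1 UMI was seen in 97.6, 99.0, 97.7 and 74.9% of Sertoli-like cells at 7, 30, 60 and 90 days, and in 83.1, 96.5, 94.8 and 87.0% of the deeper cells after each was thinned to 2000 UMIs. T or NK-like cells, a blood lineage that should lack SERPINA5, had a UMI in 19.2, 13.5, 20.4 and 27.0% of cells, or 9.14, 10.9, 10.7 and 20.4% after thinning. Median depths were 5284.5, 3650, 5412 and 5104 UMIs in Sertoli-like cells and 2803, 1399, 1701 and 1290 UMIs in T or NK-like cells. The order of the 7-day and 90-day shares in Sertoli-like cells turned round between the 2 counts. Thinning leaves out cells with fewer than 2000 UMIs and lowers the rest to that depth, and these effects were not separated.

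SERPINA5 also had a level in each of the other classes, given here beside the Sertoli markers. As a percentage of the Sertoli-like level, SERPINA5 in Leydig-like cells, the androgen-producing cells, stood at 5.30, 3.53, 26.1 and 9.85% at the 4 ages, while the 9 Sertoli markers stood at 9.44, 5.78, 32 and 14.9%. Of the 179 Leydig-like cells at 60 days, 144 came from a cluster that held none of the 273 at 90 days. In endothelial-like cells SERPINA5 stood at 15.2, 5.88, 21.5 and 8.33%, beside 6.36, 6.15, 25.3 and 17.7% for the markers. Of these pools the 7-day endothelial-like pool, at 142 CPM, was the exception in which the SERPINA5 percentage lay above that of the markers. At 90 over 7 days SERPINA5 passed the 2-fold rule upwards in stromal-like cells (129 against 49.2 CPM), Leydig-like cells (114 against 49.4 CPM), lymphatic endothelial-like cells (100.4 against 31.1 CPM), smooth muscle cells with vascular markers (152 against 17.7 CPM) and T or NK-like cells (197 against 60.7 CPM). Summed Sertoli markers at 90 against 7 days were 692 against 491 CPM in stromal-like cells, 538 against 777 in Leydig-like, 523 against 363 in lymphatic endothelial-like, 568 against 288 in the smooth muscle cells and 875 against 493 in T or NK-like cells. At 90 days the Sertoli markers at 0 were INHBB and DHH in Leydig-like cells and INHBB in lymphatic endothelial-like and T or NK-like cells. The part of Sertoli RNA in these SERPINA5 levels was not tested. In the smooth muscle cells the 7-day pool held 56 cells and 225379 UMIs, so its SERPINA5 level rests on few UMIs.

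SERPINA3-2 is a pig gene of the SERPINA3 group; human SERPINA3, alpha-1-antichymotrypsin, blocks chymotrypsin-type proteases such as cathepsin G. It lies at chr7:115978453-115987392, and pigs carry several near-identical SERPINA3 copies, so its UMIs are uncertain and may be shared with the copies. In Sertoli-like cells SERPINA3-2 had its highest level at the first age, with 469 [461–477], 158 [153–163], 124 [119–130] and 95.4 [90.3–101] CPM at 7, 30, 60 and 90 days. Each age was lower than the age before it, beyond counting error. The log2 ratio of 90 over 7 days was -2.30 [-2.38 to -2.22], and that of 30 over 7 days -1.57 [-1.62 to -1.52]. Within each library SERPINA3-2 was 3.59, 9.55, 3.45 and 8.5 times as high in Sertoli-like cells as in other cells. The other cells at 7 days include the unnamed cluster that scored for Sertoli markers, which had 432 CPM of SERPINA3-2. SERPINA3-2 and SERPINA5, which lie on the same stretch of chromosome 7, were both highest in Sertoli-like cells and differed in their order of ages.

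Leydig-like cells held 85.3, 10.0, 24.9 and 39.4 CPM of SERPINA3-2 at the 4 ages. They ranked next after Sertoli-like cells at 7, 60 and 90 days, and pericyte or vascular smooth muscle-like cells did at 30 days, with 39.1 CPM from 10 UMIs. At 90 days the Leydig-like level was 41.3% of the Sertoli-like level, beside 14.9% for the Sertoli markers. SERPINA3-2 passed the rule downwards at 90 over 7 days in 5 further classes, at log2 -2.06 in early germ-like, -1.12 in Leydig-like, -1.20 in stromal-like, -1.21 in endothelial-like and -1.19 in macrophage or monocyte-like cells, the last from 4 UMIs at 90 days and with an interval that includes 0. In stromal-like cells its level was 15.9% of the Sertoli-like level at 90 days and 7.42% at 7 days. The Sertoli markers there stood at 19.2 and 5.96%, and with 10% of free RNA subtracted the log2 ratio there was 0.50. At 90 and 7 days SERPINA3-2 stood at 7.89 and 6.71% in early germ-like cells, beside markers at 10.8 and 4.73%. Endothelial-like cells had 8.30 and 3.91%, beside 17.7 and 6.36%. Macrophage or monocyte-like cells had 13.5 and 6.26%, beside 15.8 and 6.39%. The part of Sertoli RNA in these SERPINA3-2 levels was not tested.

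**Figure D3:**
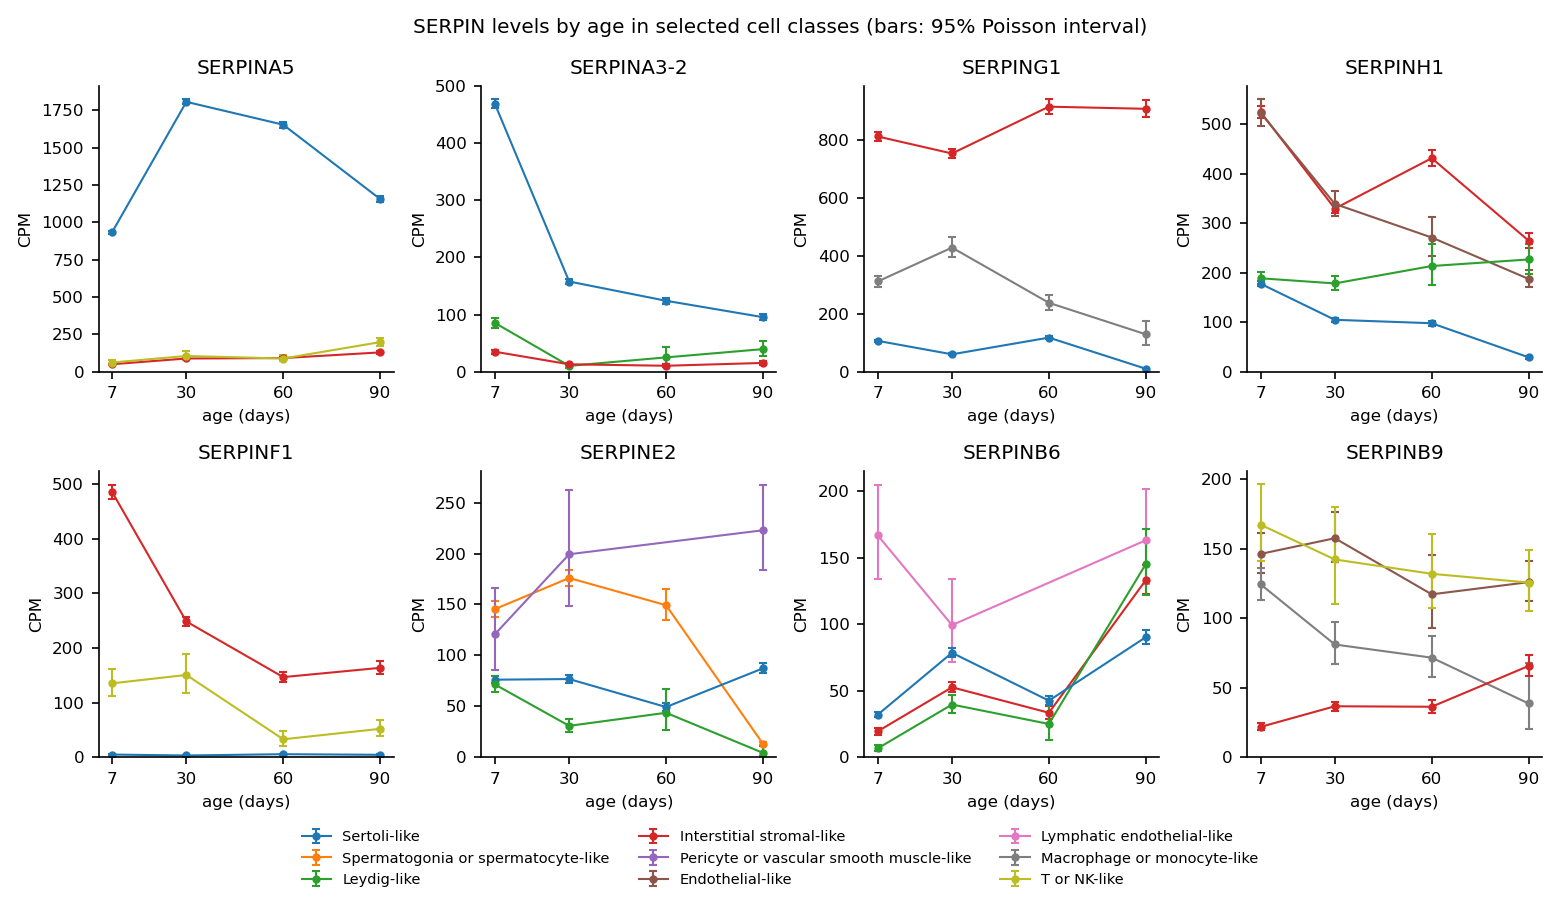
Level (CPM, from 0, bars are exact 95% Poisson intervals) of 8 main members against age (days) in selected classes; ages with fewer than 50 cells of a class have no point. SERPINA5 in Sertoli-like cells is highest at 30 days, SERPINA3-2 there and SERPINF1 in stromal-like cells are highest at 7 days, and SERPINB6 in Leydig-like and stromal-like cells is highest at 90 days.

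SERPINE2 and SERPINI1 are inhibitors of plasminogen activators, and SERPINE2 also of thrombin. SERPINE2 (protease nexin-1), which blocks thrombin, urokinase and trypsin-like proteases, led the family in early germ-like cells. It stood there at 145 [138–153], 176 [168–184], 149 [135–165] and 13.1 [11.4–14.9] CPM at 7, 30, 60 and 90 days. The first 3 ages lay well above the last, with a log2 ratio of 90 over 7 days of -3.47 [-3.68 to -3.27] and of 90 over 60 days of -3.51 [-3.75 to -3.27]. Relative to other cells of the library, SERPINE2 was 2.37, 3.25 and 3.65 times as high at the first 3 ages and 0.248 times as high at 90 days. The level followed the cluster: in the cluster with the highest SERPINE2 it was 207, 304 and 275 CPM at 7, 30 and 60 days, in another 94.4, 94.6 and 81.3 CPM, and in the cluster that held most 90-day cells it was 8.91 CPM at 60 days and 11.8 CPM at 90 days. The fall at 90 days therefore came with a change in which early germ-like cells were sampled, and a change within 1 kind of cell cannot be told apart from it here.

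Shares of cells with SERPINE2 were lowest at 90 days as well. A UMI was seen in 88.9, 75.4, 55.7 and 8.67% of early germ-like cells at the 4 ages, or 25.5, 30.1, 29.5 and 2.39% after thinning. Macrophage or monocyte-like cells, taken as a class that should lack it, had a UMI in 2.72, 2.03, 2.54 and 2.73% of cells, or 0.398, 1.32, 1.58 and 2.35% after thinning. Median depths were 17548, 10645, 11562 and 7405 UMIs in the early germ-like cells and 6519.5, 3016, 4499.5 and 2800.5 UMIs in the macrophage or monocyte-like cells. At 90 days the thinned shares were 2.39% [1.77–3.16] of 2008 early germ-like cells and 2.35% [0.286–8.24] of 85 macrophage or monocyte-like cells, the last from 2 cells, so a difference was not detectable at this depth.

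SERPINE2 was also high in pericyte or vascular smooth muscle-like cells and in Sertoli-like cells. Smooth muscle cells with vascular markers were low, and were the lowest class at 7 days, at 0 CPM. At 30 and 90 days they stood at 4.81 and 11.05% of the pericyte or vascular smooth muscle-like level. Pericyte or vascular smooth muscle-like cells had 121 CPM [85.4–166] at 7 days, 199 [148–262] at 30 days and 223 [184–267] at 90 days, the highest SERPINE2 pool of all. Sertoli-like cells had 76.1, 76.7, 49.2 and 87.2 CPM at the 4 ages and did not pass the 2-fold rule at 90 over 7 days. In Leydig-like cells SERPINE2 stood at 71.4, 30.7, 43.5 and 4.14 CPM, with a log2 ratio of 90 over 7 days of -4.11 [-5.99 to -2.74] from 4 UMIs at 90 days and 338 at 7 days. In endothelial-like cells it was higher at 90 days by log2 1.49 [0.73–2.30], at 21.7 against 7.71 CPM at 7 days.

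SERPINI1 (neuroserpin), an inhibitor of tissue plasminogen activator known from neurons, was low throughout. T or NK-like cells had 32.1 [21.3–46.3], 50.2 [32.1–74.7], 44.4 [30.7–62.0] and 25.9 [17.1–37.6] CPM at 7, 30, 60 and 90 days, and these intervals overlapped. The within-library ratio in T or NK-like cells lay between 2.29 and 4.63 and passed 2 in 4 of 4 libraries. Lymphatic endothelial-like cells had 60.4, 34.6 and 17.1 CPM at 7, 30 and 90 days, and Sertoli-like cells 17.8, 33.2, 19.6 and 10.7 CPM. In early germ-like cells SERPINI1 stood at 24.5, 22.8, 21 and 2.41 CPM, and at 90 over 7 days it was lower by the rule there, at log2 -3.35 [-3.86 to -2.87].

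**Figure D4:**
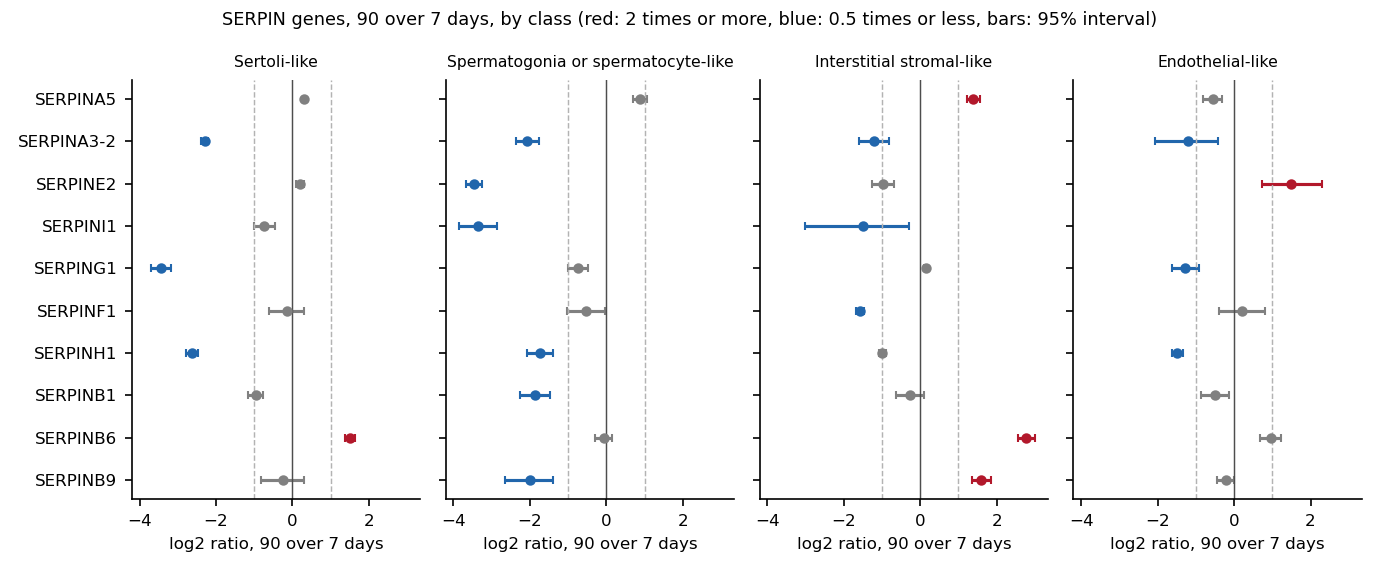
Log2 ratio of CPM at 90 over 7 days of the 10 main members in 4 classes (points, with 95% counting intervals); red and blue points passed the 2-fold rule upwards and downwards, grey points did not, and members with fewer than 20 UMIs have no point. In Sertoli-like cells SERPING1 (-3.43) and SERPINH1 lie far below 0 and SERPINB6 above it, and in early germ-like cells no red point appears.

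SERPING1, SERPINF1 and SERPINH1 gave most of the family's UMIs in stromal-like cells, and they act on complement proteases, vessel growth and collagen. SERPING1 is the C1 inhibitor, which blocks C1r, C1s and plasma kallikrein, and its gene lies at chr2:13324160-13338826. Stromal-like cells held 811 [795–827], 752 [737–767], 913 [889–938] and 906 [878–935] CPM of SERPING1 at 7, 30, 60 and 90 days. The 60-day and 90-day intervals overlapped, and the log2 ratio of 90 over 7 days was 0.16 by library totals and -0.36 with trimmed-mean (TMM) scaling. Relative to other cells of the library SERPING1 was 7.95, 11.2, 6.08 and 25.1 times as high.

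Several stromal-like clusters shared the high SERPING1 level but not its size. At 60 days it was 499 CPM in 1 cluster and 1342 CPM in another, and at 30 days 483 CPM in the first of these and 1154 CPM in a further cluster. A UMI of SERPING1 was seen in 89.0, 73.7, 83.1 and 79.8% of stromal-like cells, or 77.9, 69.7, 76.2 and 77.0% after thinning, against 36.8, 20.7, 38.3 and 9.50% of early germ-like cells, or 5.64, 5.45, 6.56 and 1.94% after thinning. The median depth was 3299, 2098, 2773 and 2199 UMIs in stromal-like cells and 17548, 10645, 11562 and 7405 UMIs in early germ-like cells.

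SERPING1 was also high in myeloid, vessel and peritubular classes, which differed in their stromal markers. Macrophage or monocyte-like cells had 311, 427, 237 and 129 CPM at the 4 ages, which was 38.3, 56.9, 26.0 and 14.2% of the stromal-like level, while the 7 stromal markers there were at 1.43, 1.55, 2.83 and 0.855% of theirs. Lymphatic endothelial-like cells had 264, 415 and 165 CPM of SERPING1 at 7, 30 and 90 days, or 32.5, 55.2 and 18.2%, beside markers at 1.16, 1.96 and 1.10%. Pericyte or vascular smooth muscle-like cells had 404, 383 and 227 CPM, or 49.8, 50.9 and 25%, beside markers at 7.31, 7.47 and 3.65%. Peritubular myoid-like cells, which wrap and contract the tubule, had 403 CPM at 90 days, or 44.5% beside markers at 53.4%.

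The 90-day level of SERPING1 was lower than at 7 days in Sertoli-like cells and higher in T or NK-like cells. Sertoli-like cells had 106, 59.5, 117 and 9.83 CPM at the 4 ages, with a log2 ratio of 90 over 7 days of -3.43 [-3.69 to -3.18] and of 90 over 60 days of -3.58 [-3.84 to -3.32]. Stromal markers in Sertoli-like cells moved too: they summed to 693, 361, 318 and 61.4 CPM, or 8.13, 4.32, 2.87 and 0.778% of the stromal-like level, with 7 of 7 detected at the first 3 ages and TCF21 at 0 at 90 days. T or NK-like cells had 9.16, 58.5, 300.2 and 159 CPM of SERPING1, beside stromal markers of 120, 556, 1858 and 1145 CPM, with TCF21 the marker at 0 at each of the 4 ages. The part of stromal RNA in both SERPING1 differences was not tested. Without the smaller of the 2 T or NK-like clusters, which held 51 of the 662 cells at 90 days and scored 0.891 for stromal markers, the SERPING1 ratio was 0.98 in place of 4.12 and no longer passed the rule. That cluster stood at 969 CPM of SERPING1 at 90 days, and the larger at 18 CPM.

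SERPINF1, pigment epithelium-derived factor, restrains vessel growth and does not inhibit proteases. It lies at chr12:47949004-47959471 beside SERPINF2. Stromal-like cells had 486 [474–498], 248 [240.0–257], 147 [137–157] and 164 [152–176] CPM of SERPINF1 at 7, 30, 60 and 90 days, with overlapping intervals at the last 2 ages. The log2 ratio of 90 over 7 days was -1.57 [-1.69 to -1.46]. Relative to other cells of the library SERPINF1 was 49.2, 26.7, 11.3 and 19.3 times as high in stromal-like cells. Sertoli-like cells had 4.62, 2.93, 5.29 and 4.18 CPM and Leydig-like cells 4.43, 2.73, 4.15 and 5.18 CPM.

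T or NK-like cells held SERPINF1 as well, at 135, 151, 32.6 and 51.7 CPM. That was 27.8, 60.6, 22.3 and 31.6% of the stromal-like level, while the stromal markers there stood at 1.41, 6.65, 16.8 and 14.5% of theirs. A UMI was seen in 35, 23.2, 7.64 and 7.10% of T or NK-like cells, or 28.0, 27.3, 6.25 and 17.5% after thinning, against 4.61, 1.58, 1.12 and 1.83% of Leydig-like cells. Median depths were 2803, 1399, 1701 and 1290 UMIs in T or NK-like cells and 9429.5, 5283, 2134 and 3413 UMIs in Leydig-like cells. In the larger T or NK-like cluster SERPINF1 stood at 40.5 CPM at 90 days. At 90 over 7 days SERPINF1 was lower by the rule in T or NK-like cells, at log2 -1.38 [-1.88 to -0.91], in pericyte or vascular smooth muscle-like cells, at -2.23, and in macrophage or monocyte-like cells, at -1.15 from 4 UMIs at 90 days.

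**Figure D5:**
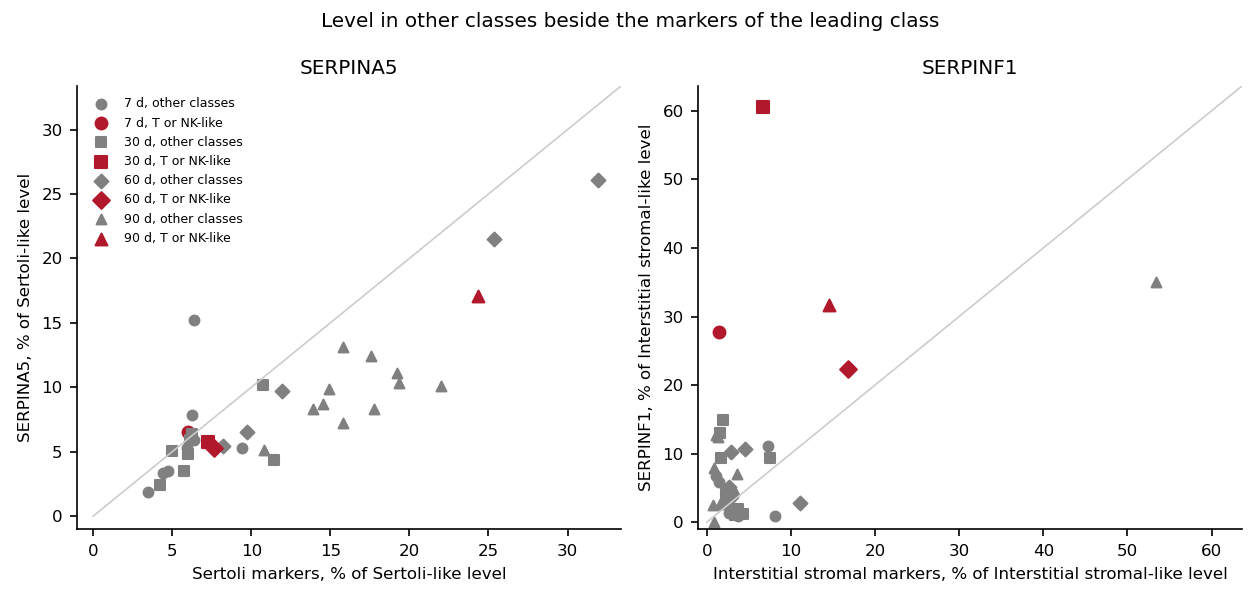
Level of SERPINA5 (left) and SERPINF1 (right) in each class other than the leading one, as % of the leading class's level in the same library, against the summed markers of that leading class on the same scale; each point is 1 pool, its shape gives the age, red marks T or NK-like cells and the line marks equality. SERPINA5 lies mostly at or below the line, with 7-day endothelial-like cells above it at 15.2%, and SERPINF1 in T or NK-like cells lies above it at 22.3 to 60.6%.

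SERPINH1 (HSP47) is the chaperone that helps procollagen fold in the endoplasmic reticulum, and inhibits no protease. Stromal-like cells had 525 [513–538], 330 [320.0–340], 432 [415–449] and 265 [250–281] CPM of SERPINH1 at 7, 30, 60 and 90 days. Endothelial-like cells had 524 [497–552], 339 [314–366], 271 [234–313] and 188 [171–206] CPM. At 7 and 30 days the intervals of these classes overlapped, and at 60 and 90 days stromal-like cells were higher. The log2 ratio of 90 over 7 days in endothelial-like cells was -1.48 [-1.64 to -1.33], and in stromal-like cells -0.99, just short of the rule, or -1.51 with TMM scaling, which passes it.

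SERPINH1 differed between the steroid-producing and the nurse cells. Leydig-like cells held 189, 178, 214 and 227 CPM of SERPINH1 at the 4 ages, and Sertoli-like cells 178, 105, 97.8 and 28.9 CPM. The log2 ratio of 90 over 7 days in Sertoli-like cells was -2.62 [-2.77 to -2.47], and the 7 stromal markers moved the same way there, as given beside SERPING1. As a percentage of the stromal-like level, SERPINH1 in Sertoli-like cells was 33.8, 31.8, 22.7 and 10.9%, each above the marker percentage. The ratio was also below 0.5 in lymphatic endothelial-like cells (119 against 337 CPM), pericyte or vascular smooth muscle-like cells (117 against 362 CPM) and early germ-like cells (6.35 against 21 CPM). In T or NK-like cells SERPINH1 was higher at 90 days, at 42.2 against 11.4 CPM, and without the smaller cluster the log2 ratio was 0.11 in place of 1.88.

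Collagens and the enzymes that modify them are the partners of SERPINH1. Of 22 genes of that list measured in Sertoli-like cells, 0 were higher and 5 lower at 90 over 7 days, with a median log2 ratio of -0.43 against 0.42 for all genes measured, of which 33.4% were higher and 12% lower. In stromal-like cells 1 of 22 was higher and 1 lower, against 28.5 and 7.27% of all genes, and their median was -0.09. In Leydig-like cells 2 of 20 were higher and 7 lower, against 24.7 and 8.34% of all genes, among them the fibrillar collagen gene COL3A1 at 342 against 1662 CPM, while SERPINH1 itself did not pass the rule there. In T or NK-like cells 15 of 19 were higher and 0 lower, against 33 and 6.72% of all genes, and their median was 3.07. COL1A1 stood at 903 against 32.1 CPM and COL1A2 at 1218 against 38.9 CPM, beside the stromal markers given with SERPING1. These T or NK-like values include the smaller cluster, which scored for stromal markers and held 0 cells at 7 days and 51 at 90 days.

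SERPINB1, SERPINB6 and SERPINB9 belong to the intracellular branch of the family, which guards cells against proteases of their own granules or of immune attack. SERPINB1 blocks neutrophil elastase, proteinase 3 and cathepsin G. It lies at chr7:1684212-1693313, near SERPINB9 at chr7:1723302-1732562. Macrophage or monocyte-like cells held 290 [273–308], 394 [362–428], 331 [301–364] and 263 [209–327] CPM of SERPINB1 at 7, 30, 60 and 90 days. The ratio to other cells of the library was 8.88, 12.2, 8.90 and 19.6. A UMI was seen in 59.6, 53.8, 63.8 and 44.5% of macrophage or monocyte-like cells, or 37.8, 43.9, 43.5 and 34.1% after thinning, against 4.84, 3.34, 3.35 and 2.20% of Leydig-like cells. The median depth was 6519.5, 3016, 4499.5 and 2800.5 UMIs in macrophage or monocyte-like cells and 9429.5, 5283, 2134 and 3413 UMIs in Leydig-like cells.

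Elsewhere SERPINB1 was moderate. Sertoli-like cells had 36.1, 37.5, 34.1 and 18.5 CPM, with a log2 ratio of 90 over 7 days of -0.97 that missed the rule by library totals and passed it with TMM scaling at -1.47. In T or NK-like cells SERPINB1 stood at 77.9, 56.4, 28.7 and 23.0 CPM, with a ratio of -1.76 [-2.50 to -1.07]. Early germ-like cells had 16.8, 25.7, 22.6 and 4.64 CPM and a ratio of -1.86 [-2.26 to -1.46].

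SERPINB9 blocks granzyme B, the killing protease of cytotoxic lymphocytes. It was shared by blood-vessel and lymphocyte classes at nearly the same level. Endothelial-like cells held 146 [132–161], 157 [140.4–176], 117 [93.1–145] and 126 [112–141] CPM of SERPINB9 at 7, 30, 60 and 90 days. T or NK-like cells held 167 [141–197], 142 [110.4–180.2], 132 [107–160.2] and 126 [105–149] CPM, so that the intervals of these classes overlapped at each age. Relative to other cells of the library SERPINB9 was 7.94, 9.17, 6.41 and 7.72 times as high in endothelial-like cells and 7.85, 6.79, 7.42 and 6.44 times as high in T or NK-like cells.

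The highest single pool of SERPINB9 was in lymphatic endothelial-like cells, at 178 CPM [144–217] at 7 days, 92.3 [65.9–126] at 30 days and 203 [166–245] at 90 days. Macrophage or monocyte-like cells had 124, 81.0, 71.5 and 38.6 CPM at the 4 ages, and the 90-day value, from 12 UMIs, was lower than at 7 days by log2 -1.69 [-2.65 to -0.87]. Stromal-like cells had 21.7, 36.6, 36.2 and 65.5 CPM, with a ratio of 1.59 [1.35–1.84]. Leydig-like cells, at 0.211, 3.04, 2.07 and 2.07 CPM, and Sertoli-like cells, at 3.38, 3.89, 2.80 and 2.86 CPM, held little. A SERPINB9 UMI was seen in 46.6, 41.9, 26.3 and 29.6% of endothelial-like cells, or 23.8, 24.3, 16.5 and 18.1% after thinning, against 1.99, 1.72, 1.61 and 1.65% of Sertoli-like cells. Median depths of 4157.5, 3024, 2225.5 and 2510.5 UMIs in endothelial-like cells were below the 5284.5, 3650, 5412 and 5104 UMIs in Sertoli-like cells.

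SERPINB6, which in human cells blocks trypsin-like proteases and cathepsin G, was the member that was higher at 90 days in the most classes. Leydig-like cells held 6.55 [4.45–9.29], 39.5 [33.0–46.9], 24.9 [12.9–43.5] and 145 [122–171] CPM of SERPINB6 at 7, 30, 60 and 90 days. Stromal-like cells held 19.4, 52.5, 33.3 and 133 CPM, and Sertoli-like cells 31.9, 78.4, 42.4 and 90.1 CPM. In these 3 classes the order of ages was the same: lowest at 7 days, then 60, then 30, and highest at 90 days. The 30-day and 60-day intervals overlapped in Leydig-like cells. The order was not particular to these classes: endothelial-like cells had it too, as did all kept cells, at 30.3, 63.6, 40.2 and 80.4 CPM at the 4 ages. The log2 ratio of 90 over 7 days was 4.47 [3.90–5.08] in Leydig-like, 2.78 [2.56–3.0] in stromal-like and 1.5 [1.38–1.62] in Sertoli-like cells, the last 0.999 with TMM scaling, just short of the rule.

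SERPINB6 passed the rule upwards in macrophage or monocyte-like cells (83.5 against 36 CPM), T or NK-like cells (67.1 against 11.4 CPM) and smooth muscle cells with vascular markers (60.6 against 17.7 CPM) as well. The 7-day pool of the smooth muscle cells held 56 cells and 225379 UMIs, so its SERPINB6 level rests on few UMIs. Endothelial-like cells held 66.5, 82.5, 70.0 and 129 CPM and lymphatic endothelial-like cells 167 [134–205], 99.2 [71.8–134] and 163 [130.4–201] CPM at 7, 30 and 90 days, and neither class passed it. Among germ cells at 90 days SERPINB6 stood at 146 CPM [135–157] in spermatocyte or spermatid-like cells and 134 [104–169] in spermatid-like cells, against 28.0 CPM in early germ-like cells. Summed spermatid markers were 94972 CPM in spermatid-like, 4672 in spermatocyte or spermatid-like, 1695 in Leydig-like, 2858 in stromal-like and 1533 in Sertoli-like cells. The part of spermatid RNA in the SERPINB6 levels of classes that are not germ-cell-like was not tested. A SERPINB6 UMI was seen in 6.22, 20.7, 6.70 and 39.2% of Leydig-like cells, or 1.43, 6.61, 4.26 and 22.4% after thinning. T or NK-like cells had a UMI in 4.21, 2.53, 3.27 and 9.97% of cells, or 4.0, 0, 2.68 and 17.5% after thinning, the last from 103 cells. The 0 at 30 days came from 55 cells, which allows a share of up to 6.49%. Median depths were 9429.5, 5283, 2134 and 3413 UMIs in Leydig-like cells and 2803, 1399, 1701 and 1290 UMIs in T or NK-like cells.

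The other 19 members were low in the named classes, and each is given with its highest pool among those classes. SERPINE3 was highest in early germ-like cells, with 21.3, 19.3, 16.3 and 10.5 CPM at the 4 ages. SERPINA4 (kallistatin, an inhibitor of tissue kallikrein in human plasma) was highest in Sertoli-like cells, with 11.4 CPM at 7 days and 0.513 CPM at 90 days, a log2 ratio of -4.47 [-5.80 to -3.42]. SERPINB8 and SERPINB10 were highest in macrophage or monocyte-like cells, at 38.6 and 45 CPM at 90 days, from 12 and 14 UMIs, against 22.1 and 23.0 CPM at 7 days. SERPINB10 was also a leading gene, at 50 CPM or more, of an unnamed cluster outside these pools. That cluster held 48, 14, 8 and 0 cells at 7, 30, 60 and 90 days. SERPINB11 was highest in endothelial-like cells at 90 days, with 18.8 CPM [13.7–25.1] against 2.94 CPM at 7 days, a log2 ratio of 2.67 [1.57–3.97]. SERPINB5 was highest in spermatid-like cells, at 19.7 CPM from 10 UMIs, and SERPINA12 (vaspin) in early germ-like cells at 7 days, at 6.23 CPM. SERPINA6, which encodes the carrier of corticosteroids in blood, was highest in stromal-like cells at 7 days, at 5.20 CPM, against 0.70 CPM at 90 days.

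Of these 19 members, 11 had fewer than 100 UMIs each over all kept cells: SERPINB7 (87), SERPINI2 (83), SERPINB11 (73), SERPINA1 (66), SERPINC1 (53), SERPINB2 (38), SERPINA11 (38), SERPINB13 (26), SERPINA7 (20), SERPINB12 (6) and SERPIND1 (4). SERPINA1 and SERPINC1 encode alpha-1-antitrypsin and antithrombin, main protease inhibitors of plasma that are made mostly in the liver, and SERPIND1 encodes heparin cofactor II. The highest pools of SERPINA1, SERPINC1 and SERPIND1 were lymphatic endothelial-like cells at 30 days, peritubular myoid-like cells at 90 days and stromal-like cells at 7 days, at 2.31, 1.47 and 0.0813 CPM from 1, 2 and 1 UMIs. The SERPINA1 value has an interval of 0.0584 to 12.9 CPM, and 1 other pool held at least 20 of its UMIs at a lower CPM. SERPINI2, SERPINB2, SERPINA11, SERPINB13, SERPINA7 and SERPINB12 had their highest pool in early germ-like cells, the class with the deepest cells, at 0.297 to 2.40 CPM. SERPINB7 was highest in endothelial-like cells at 90 days, at 5.42 CPM. SERPINF2, alpha-2-antiplasmin, had 118 UMIs and was highest in macrophage or monocyte-like cells at 30 days, at 5.63 CPM.

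The members were read together against all genes measured in the same class. In Sertoli-like cells 13 of the 29 members had enough UMIs for a ratio of 90 over 7 days; 2 were higher and 5 lower, against a background of 33.4% of all genes higher and 12% lower (45.4% in either direction). The higher members were SERPINB6 and SERPINF2, and the lower ones SERPINA3-2, SERPINA4, SERPINB8, SERPING1 and SERPINH1. The median log2 ratio was -0.74 for those 13 and 0.42 for all genes. TMM scaling shifts every ratio in this class by -0.50, and SERPINA5, at 0.31 by library totals, was at -0.19 with it. By steps, 1 member was higher and 2 were lower at 30 over 7 days of 12 measured, against 7.71 and 6.02% of all genes, and 2 were higher and 3 lower at 90 over 60 days of 12, against 24 and 10.6%. The clusters that made up the class changed with age: 4047 of 4868 cells at 7 days, 3415 of 5300 at 30 days, 2499 of 2741 at 60 days and 2242 of 2247 at 90 days each came from a different cluster.

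In early germ-like cells 16 members were measured at 90 over 7 days, of which 0 were higher and 11 lower, against a background of 14.7% of genes higher and 30.8% lower. The lower members were SERPINE2, SERPINI1, SERPINA12, SERPINA3-2, SERPINB9, SERPINB1, SERPINB5, SERPINH1, SERPINE3, SERPINB7 and SERPINA6. SERPINB7 and SERPINA6 had 0 UMIs at 90 days, so their ratios are bounds against 3 UMIs. The median log2 ratio was -1.81 for the 16 and -0.26 for all genes, and TMM scaling shifts ratios by 0.37. SERPINA5 missed the rule upwards at 0.87 by library totals. It passed the rule at 1.24 with TMM scaling, 1.07 with the mean over cells and 6.15 with 10% of free RNA subtracted. In no other alternative that gave a value did it pass.

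In stromal-like cells 12 members were measured at 90 over 7 days, with 3 higher and 4 lower, against a background of 28.5% higher and 7.27% lower and a TMM shift of -0.52. Their clusters changed too, since 1840 of the 1877 cells at 90 days came from a cluster with none of the 3429 at 7 days. SERPINB6, SERPINB9 and SERPINA5 were higher, and SERPINF1, SERPINI1, SERPINA3-2 and SERPINA6 lower. In Leydig-like cells 2 of 8 were higher and 3 lower, against 24.7 and 8.34% and a TMM shift of -0.55: SERPINB6 and SERPINA5 were higher, and SERPINE2, SERPING1 and SERPINA3-2 lower. In T or NK-like cells 5 of 10 were higher and 2 lower, against 33 and 6.72%: SERPING1, SERPINB6, SERPINH1, SERPINE2 and SERPINA5 were higher, and SERPINB1 and SERPINF1 lower. Without the smaller T or NK-like cluster 5 of the members passed the rule in place of 7, and the share of all genes without it is not given.

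Among the smaller classes, 3 of 5 measured members passed the rule at 90 over 7 days in smooth muscle cells with vascular markers, against 26.5% of genes in either direction. The counts were 2 of 8 in pericyte or vascular smooth muscle-like cells against 28%, 5 of 11 in endothelial-like cells against 26.6%, 3 of 8 in lymphatic endothelial-like cells against 20.7%, and 5 of 11 in macrophage or monocyte-like cells against 29.8%. With so few members measured in a class, 1 gene moves these shares by much.

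Proteases, cofactors and receptors that serpins act on, such as plasminogen activators, tissue factor and low-density lipoprotein receptor relatives, form the list of 36 matched genes set beside the family. The shares of all genes passing the rule are those given for the members. In Sertoli-like cells 10 of 22 measured genes of the list were higher and 5 lower at 90 over 7 days, with a median log2 ratio of 0.30 against 0.42 for all genes. F3, the tissue factor that starts coagulation, stood at 66.7 against 1531 CPM, and LRP8, a receptor that takes up lipoproteins, at 140 against 64.1 CPM. In early germ-like cells 3 of 28 were higher and 17 lower, their median being -1.36 against -0.26 for all genes, and F3 there stood at 9.05 against 61.5 CPM. In stromal-like cells 8 of 20 were higher and 3 lower; PLAT, the tissue plasminogen activator blocked by SERPINI1, stood at 41.5 against 127 CPM and F2R, the thrombin receptor, at 28.9 against 68.1 CPM. In Leydig-like cells 4 of 11 were higher and 4 lower, with the lysosomal protease CTSB at 173 against 56.8 CPM. In endothelial-like cells 4 of 15 were higher and 2 lower, against 21.4 and 5.12% of all genes, with F2R at 50.4 against 413 CPM and LRP8 at 71.3 against 14.3 CPM. In T or NK-like cells, with the smaller cluster included, 4 of 10 were higher and 1 lower.

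Protease inhibitors of other families were set beside the serpins as a list of 25 matched genes. In Sertoli-like cells 4 of 17 were higher and 8 lower at 90 over 7 days, against 33.4 and 12% of all genes. Their median log2 ratio was -0.46 against 0.42 for all genes. TIMP1, an inhibitor of matrix metalloproteases, stood at 4.62 against 83.4 CPM and the cystatin CST6 at 1.91 against 53.6 CPM. In early germ-like cells 1 of 20 was higher and 12 were lower, against 14.7 and 30.8% of all genes. Their median was -1.18 against -0.26 for all genes. In stromal-like cells 6 of 17 were higher and 3 lower, against 28.5 and 7.27% of all genes. ITIH4, of the inter-alpha-trypsin inhibitor family, stood at 183 against 7.73 CPM and TIMP3 at 935 against 95.7 CPM. A2M, the broad protease trap alpha-2-macroglobulin, stood at 572 against 89.4 CPM, while ITIH5 stood at 13.3 against 81.8 CPM. In Leydig-like cells 4 of 11 were higher and 2 lower, against 24.7 and 8.34% of all genes. A2M stood there at 7516 against 1709 CPM, the first a level above that of any serpin in any pool. In T or NK-like cells 7 of 10 were higher and 1, TIMP1, lower, against 33 and 6.72% of all genes. That count includes the smaller T or NK-like cluster, which scored for stromal markers.

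The leading class was the same in every library for 5 of the main members, by more than counting error. SERPINA5 and SERPINA3-2 were highest in Sertoli-like cells, SERPING1 and SERPINF1 in stromal-like cells and SERPINB1 in macrophage or monocyte-like cells at 7, 30, 60 and 90 days. For the others the first 2 classes changed places between ages or had overlapping intervals at some age: SERPINH1 among stromal-like, endothelial-like and Leydig-like cells, SERPINB6 among lymphatic endothelial-like cells and 2 or more further classes, SERPINB9 between lymphatic endothelial-like, endothelial-like and T or NK-like cells, SERPINE2 between early germ-like, pericyte or vascular smooth muscle-like and Sertoli-like cells, and SERPINI1 between T or NK-like and lymphatic endothelial-like cells.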

How the data were processed

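Cells of whole pig testis at 7, 30, 60 and 90 days were measured with the 10x Chromium 3′ kit (version 3), 1 library per age. The deposited files hold whole-number UMI counts per gene and barcode, not normalized, made by the authors with Cell Ranger 5.0.1 per the file headers; bcl2fastq, Scanpy 1.7.1 and the Sscrofa11.1 build are named in the submitters' processing notes. The labels speak of 86453 captured cells, and the files hold 69602 barcodes. How reads shared by near-identical genes were counted is not given in the sources used here.

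Kept barcodes had 1000 or more UMIs, 500 or more genes and up to 15% of UMIs from 13 mitochondrial genes. Scrublet, run within Scanpy 1.11.5 on each library, scored doublets, and the highest-scoring share, 0.8% per 1000 barcodes, was removed (7829 barcodes), since the automatic threshold took 28.8% of cells at 60 days. Cells were clustered with Leiden (resolution 1, 2000 variable genes without SERPIN features, 30 components, 15 neighbours). Clusters were named from 18 marker sets by rules set after the clusters were seen (a score of at least 0.8, at least 3 markers in at least 5% of cells), so a class here may differ from the study's own. UMIs were summed per class and library, and pools of at least 50 cells were divided by their total to give CPM. Ratios used CPM with at least 20 UMIs over both pools; a pool at 0 was set to 3 UMIs. Intervals are exact Poisson (levels), conditional binomial (ratios) and Clopper-Pearson (shares) at 95%. They do not cover differences between animals, and at the depths of 45717373 to 96133720 UMIs per library they are narrow for the large classes.

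No test was made, because each age has 1 library; the count model of edgeR was not used, and edgeR 4.0.16 (R 4.3.3) gave TMM factors alone. Members named in full have at least 50 CPM and 20 UMIs in at least 1 pool; from each of 3 gene lists (97 genes, 83 matched) the text takes genes among the 3 largest ratios in each direction with at least 50 CPM in the higher pool. The members, lists and markers were chosen with earlier results of these data known. Gene positions come from the RefSeq table for Sscrofa11.1, which matched 25 of the 29 symbols reported; SERPINB6, SERPINB8, SERPINA4 and SERPINA12 had no entry of that symbol. 1 of the 30 members is left out of every level, count and share and is not reported here. The planned description of reactive centre loops was not made. The steps were tested on simulated counts. In all, 11 alternatives were planned and 1, the T or NK-like class without its smaller cluster, was added after seeing the data.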

Additional observations from a re-analysis of the deposited data

Results flagged for a closer look

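Of the main members, 4 went opposite ways in 2 classes at 90 over 7 days. Each class has 1 library per age, and the difference between the classes was not tested. SERPING1 had a log2 ratio of 4.12 in T or NK-like cells and -3.43 in Sertoli-like cells. SERPINH1 had 1.88 in T or NK-like cells and -2.62 in Sertoli-like cells. For both genes the stromal markers moved the same way in the same class, as given in the results, and their part was not tested. In T or NK-like cells without the smaller cluster, neither gene passed the rule. SERPINE2 had 1.86 in T or NK-like cells, from 26 and 6 UMIs, and -4.11 in Leydig-like cells, from 4 and 338 UMIs. SERPINB9 had 1.59 in interstitial stromal-like cells and -2.00 in early germ-like cells, whose clusters differed between the ages.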

How the results depend on the processing

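The alternatives were run on 42 ratios of the main members past the 2-fold rule at 90 over 7 days. The 3 such ratios in smooth muscle cells with vascular markers were not among them. Of the 42, 25 kept their direction and stayed past the rule in every alternative that gave a value. Among 437 recomputed ratios, 29 no longer passed it and 1 changed sign. That was SERPINA3-2 in interstitial stromal-like cells, at 0.50 with 10% of free RNA subtracted. The leading class here is the one with the highest mean CPM over the ages at which it has a pool. It was the same in every alternative for 7 of 10 members. Against the next class, the log2 ratio of SERPINI1 in T or NK-like cells was -0.0823 with no doublet removal, -0.0084 with the automatic threshold, -0.29 with stricter cell filters and -0.30 after thinning. For SERPINB9 in lymphatic endothelial-like cells it was -0.0417 with no doublet removal, -0.0523 with stricter filters, -0.0839 at resolution 2 and -1.75 with the per-cell marker gate. SERPINB6 led by this mean in spermatocyte or spermatid-like cells, which have a pool at 90 days alone. At that age lymphatic endothelial-like cells were higher, at 163 against 146 CPM. The log2 ratio of SERPINB6 in spermatocyte or spermatid-like cells against the next class was -1.56 with the automatic threshold and -0.38 at resolution 2. With the mean over cells it was -0.75, and after thinning -0.26. Members past the rule numbered 20 in early germ-like cells (11 with 20 UMIs) and 11 in Sertoli-like cells (7) with a minimum of 1 UMI, 5 and 4 in pericyte or vascular smooth muscle-like cells with no doublet removal and after thinning (2), and 3 in endothelial-like (5) and 5 in lymphatic endothelial-like cells (3) with no doublet removal. The family's share in early germ-like cells had a ratio of -0.94 with TMM. Collagen genes past the rule numbered 11 with no doublet removal and 10 with TMM in Sertoli-like cells (5), and 4 with stricter filters, 4 with the gate, 9 with TMM and 4 after thinning in stromal-like cells (2). Target genes numbered 4 after thinning, 4 with free RNA subtracted and 13 with 1 UMI in Leydig-like cells (8), and 18 with 1 UMI in stromal-like cells (11). Other inhibitors numbered 2 after thinning and 3 with free RNA subtracted in Leydig-like cells (6). These counts of members and list genes are given without the share of all genes past the rule under the same alternative. They show only how the counts moved with the setting, and are not a result about the genes. The cause was not tested. No paired analysis was possible because each age has 1 library, and for the same reason no library could be left out of a group.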
